A study of Mus musculus with 34 samples.

Results

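CpG islands that carried methylation in adult mouse tissue but scored lower in cells differentiated from embryonic stem (ES) cells in culture were examined across embryos, ES cells, teratomas, 8 adult tissues and pancreatic cells. An island was a run of at least 3 array probes with gaps of no more than 500 bases, and its score was the mean over its probes of the log10 ratio of antibody-bound to input DNA after each array had been set to a mean of 0 and a standard deviation of 1 (a Z value). Members were selected on these scores: the mean of the 16 adult arrays had to lie above 0.75 and the mean of the 5 differentiated ES arrays at least 0.4 below it. This rule kept 645 of the 13240 autosomal islands scored on every array, which are 45.2% of the 1427 autosomal islands with an adult mean above 0.75. The other 782 adult-methylated islands are given beside the members where a comparison helps. Shares of members called are set beside all islands tested, and most of these are not adult-methylated. The median adult mean of all autosomal islands was -0.221, so they have less room than members to be called lower. Shares called among the 782 were not counted. A further 157 islands on chromosomes X and Y met both thresholds and were dropped. The difference between adult and differentiated means, which chose the members, is described without a test. Differences among the adult arrays or among the differentiated arrays are other contrasts of arrays that the rule used as means, and they are marked so where a test is given.

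The study used methylated DNA immunoprecipitation with an antibody to 5-methylcytidine, hybridised with input DNA to CpG island arrays, to follow island methylation from cultured ES cells to tissues. Its 34 arrays held 16 of adult tissue, 5 of embryos, 3 of undifferentiated ES cells, 5 of differentiated ES cells, 2 of teratomas and 3 of pancreatic cells. The adult arrays were 2 each of colon, pancreas, brain, kidney, liver, lung, muscle and spleen from animals aged 3 months, of both sexes, and the methods give C57Bl/6 as the strain of all mouse DNA. Embryos were taken at 8.5, 9.5, 10.5 and 11.5 days (male) and at 12.5 days (female), 1 array an age, so that age has no replicate. Undifferentiated ES cells were the lines EB5, J1 and TT2, 1 array each. Differentiated ES cells were embryoid bodies from TT2 (2 days in hanging drops without LIF, then 4 days in suspension), cells given 1 uM retinoic acid for 8 days, and 2 arrays of endoderm and 1 of mesoderm from a reporter line derived from EB5. The endoderm and mesoderm came from cultures with 10 ng/ml Activin A for 6 days and were sorted on Gsc, Sox17 and ECD. The retinoic acid cells are labelled TT2, as in a figure legend of the study, while the methods name J1. Teratomas are labelled as grown from J1, while the methods name the lines D3 and C4 placed under the skin of NOD-SCID mice, and how much host tissue a tumour held is not stated. Pancreatic cells were sorted beta cells, the beta cell line Min6 and the alpha cell line aTC, 1 array each. Per the supplement, the beta cells came from islets of Pdx1-GFP transgenic mice aged 2 to 8 months and were sorted with antibodies to insulin. All adult arrays were read with 1 version of the scanner software and the embryo arrays with 2 other versions, so that software and age cannot be told apart from adult and embryo arrays alone. A software block in that comparison rests on the ES cell, differentiated and teratoma arrays, as each of these groups was read with more than 1 version.

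Methylation of cytosine in CpG dinucleotides is copied at each cell division by a maintenance enzyme and added anew by de novo enzymes around implantation. Most CpG islands at gene starts stay unmethylated in all tissues, while imprinted control regions keep methylation on the allele from 1 parent, and many genes used only in germ cells gain methylation at their starts in somatic cells. Undifferentiated ES cells are derived from the inner cell mass of the blastocyst.

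Promoter sequences are shown for the 10 named member genes whose island lay at the gene's start and which had an entry in the RefSeq table, because they include the imprinted, germline and Hox genes described below, beside Rbmxl2 and 5730596B20Rik, which are on none of these lists. Of 57 genes with a member island within 250 bases of their start, 46 matched an entry. Each sequence runs 5′ to 3′ on the gene's strand, from 250 bases before to 50 bases after the RefSeq start in build GRCm38.p6, and capitals mark each CG. The windows are chr11:22971755-22972054 on the plus strand for Zrsr1, chr2:152686898-152687197 on the plus strand for Mcts2, chr10:13090582-13090881 on the plus strand for Plagl1, chr3:153904842-153905141 on the minus strand for Msh4, chr7:107209195-107209494 on the plus strand for Rbmxl2, chr6:52204538-52204837 on the minus strand for Hoxa5, chr5:107330944-107331243 on the plus strand for Brdt, chr2:178407609-178407908 on the minus strand for Sycp2, chr3:102936051-102936350 on the minus strand for Sycp1 and chr6:52176905-52177204 on the plus strand for 5730596B20Rik.
Zrsr1: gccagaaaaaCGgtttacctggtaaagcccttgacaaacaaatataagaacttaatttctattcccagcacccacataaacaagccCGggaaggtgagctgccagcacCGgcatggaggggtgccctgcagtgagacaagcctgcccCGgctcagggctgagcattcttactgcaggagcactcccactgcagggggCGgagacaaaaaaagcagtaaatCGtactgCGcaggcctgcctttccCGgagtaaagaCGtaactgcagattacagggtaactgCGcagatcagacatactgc
Mcts2: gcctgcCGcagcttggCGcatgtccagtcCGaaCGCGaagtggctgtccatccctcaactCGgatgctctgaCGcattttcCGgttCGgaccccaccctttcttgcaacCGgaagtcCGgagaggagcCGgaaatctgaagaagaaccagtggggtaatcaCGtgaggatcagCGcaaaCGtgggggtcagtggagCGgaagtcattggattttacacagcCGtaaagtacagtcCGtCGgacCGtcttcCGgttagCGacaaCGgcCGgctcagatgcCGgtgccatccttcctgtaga
Plagl1: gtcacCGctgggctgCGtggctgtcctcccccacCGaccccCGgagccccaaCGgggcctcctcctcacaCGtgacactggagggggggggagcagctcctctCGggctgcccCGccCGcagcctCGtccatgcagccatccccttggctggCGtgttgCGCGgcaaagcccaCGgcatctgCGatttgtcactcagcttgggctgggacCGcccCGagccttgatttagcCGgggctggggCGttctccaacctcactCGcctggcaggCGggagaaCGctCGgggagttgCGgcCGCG
Msh4: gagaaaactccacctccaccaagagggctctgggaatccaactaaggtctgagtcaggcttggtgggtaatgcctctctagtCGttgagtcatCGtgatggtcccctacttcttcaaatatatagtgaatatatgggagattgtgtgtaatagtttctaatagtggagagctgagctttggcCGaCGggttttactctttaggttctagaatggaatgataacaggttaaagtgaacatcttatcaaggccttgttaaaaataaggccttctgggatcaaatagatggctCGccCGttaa
Rbmxl2: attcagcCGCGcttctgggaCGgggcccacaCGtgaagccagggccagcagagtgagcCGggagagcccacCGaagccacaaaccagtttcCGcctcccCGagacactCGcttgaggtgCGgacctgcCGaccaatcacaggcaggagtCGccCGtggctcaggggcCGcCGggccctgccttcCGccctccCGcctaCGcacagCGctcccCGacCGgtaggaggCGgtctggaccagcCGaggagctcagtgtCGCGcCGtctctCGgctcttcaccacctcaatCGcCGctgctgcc
Hoxa5: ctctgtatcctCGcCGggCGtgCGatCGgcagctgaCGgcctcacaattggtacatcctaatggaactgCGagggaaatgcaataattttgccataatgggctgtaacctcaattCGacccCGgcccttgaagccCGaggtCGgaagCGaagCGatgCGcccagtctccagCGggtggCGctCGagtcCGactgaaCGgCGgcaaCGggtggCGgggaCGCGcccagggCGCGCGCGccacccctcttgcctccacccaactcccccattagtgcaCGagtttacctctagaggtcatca
Brdt: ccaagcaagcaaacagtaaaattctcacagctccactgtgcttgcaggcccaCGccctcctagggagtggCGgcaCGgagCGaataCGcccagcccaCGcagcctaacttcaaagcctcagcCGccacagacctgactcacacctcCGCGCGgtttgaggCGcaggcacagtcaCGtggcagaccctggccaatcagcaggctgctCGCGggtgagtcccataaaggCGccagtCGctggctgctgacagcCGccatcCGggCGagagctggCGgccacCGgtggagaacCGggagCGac
Sycp2: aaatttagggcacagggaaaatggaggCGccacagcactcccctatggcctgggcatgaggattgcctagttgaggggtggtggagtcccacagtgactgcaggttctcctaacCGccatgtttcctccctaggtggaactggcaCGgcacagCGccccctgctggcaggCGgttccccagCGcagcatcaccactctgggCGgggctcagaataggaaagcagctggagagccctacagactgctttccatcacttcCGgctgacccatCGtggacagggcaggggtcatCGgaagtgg
Sycp1: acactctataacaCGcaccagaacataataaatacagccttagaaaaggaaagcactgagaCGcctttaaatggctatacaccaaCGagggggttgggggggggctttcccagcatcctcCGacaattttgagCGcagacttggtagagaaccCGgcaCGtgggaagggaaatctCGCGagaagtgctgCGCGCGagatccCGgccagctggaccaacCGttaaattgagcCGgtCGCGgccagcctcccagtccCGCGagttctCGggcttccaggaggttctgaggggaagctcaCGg
5730596B20Rik: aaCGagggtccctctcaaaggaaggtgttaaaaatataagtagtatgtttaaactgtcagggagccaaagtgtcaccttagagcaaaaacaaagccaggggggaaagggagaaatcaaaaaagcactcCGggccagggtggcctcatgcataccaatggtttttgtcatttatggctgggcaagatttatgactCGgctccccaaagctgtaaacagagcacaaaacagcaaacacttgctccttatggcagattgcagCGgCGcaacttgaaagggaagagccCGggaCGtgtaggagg
The islands themselves keep the coordinates of the array files, which name no build, and are given by chromosome only. Counted on the gene's strand, CG was present in 94.6% of all 32851 mouse promoters of this length, with a median of 7 a promoter, and in all 46 matched promoters, with a median of 18.5 (5 to 39). The 48 matched promoters at other adult-methylated islands had a median of 16. A second motif, TGCCGC, which itself contains CG and was searched on both strands, was present in 13 of the 46 promoters (28.3%), in 14.6% of the 48 and in 11.6% of all promoters. Among the sequences shown, the most CG were in Rbmxl2 and Hoxa5, 29 each, and the fewest in Msh4, 6.

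The J1 array stood apart and its record is given before the results. Between the scanner file and the deposited processed table, its probe values correlated with r = 0.113, while the other 33 arrays gave r from 0.894 to 0.991. Across the 13616 islands, J1 in the scanner file correlated with adult arrays at r between 0.858 and 0.965 and with EB5 and TT2 at 0.793 and 0.799, while EB5 and TT2 correlated with each other at 0.881. J1 correlated with the teratomas at 0.899 and 0.907 and with embryos at 0.849 to 0.889. In the deposited table, over 5914 islands, J1 correlated with no group closely: r was 0.211 and 0.243 with TT2 and EB5, 0.153 to 0.184 with adult arrays and 0.173 to 0.186 with embryos, 0.146 to 0.192 with differentiated cells, 0.182 and 0.190 with teratomas and 0.104 to 0.168 with pancreatic cells, while EB5 and TT2 correlated with each other at 0.867. These correlations are over islands of shared arrays and serve as description only. At the 310 members that the deposited table also scored, the J1 median was 3.11 in the scanner file and 0.215 in the table. At the same islands EB5 had 1.15 in the scanner file and 1.30 in the table, and TT2 had 1.22 and 1.25. Adult arrays had medians there of 2.50 to 3.13 in the scanner files and 2.41 to 3.18 in the table, embryos up to 2.99 and 2.93. In the scanner files J1 was thus within the adult range and above every embryo at these islands, and in the deposited table it was below EB5 and TT2. Which record holds the J1 cells was not tested. The main counts of members called in undifferentiated ES cells are given with and without J1, as are most named genes. Values from the deposited table that include J1 rest in part on a column whose r with every other array was at most 0.243.

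The members had a median adult mean of 2.72 (0.752 to 3.77) and a median differentiated mean of 2.04 (-0.962 to 3.08). By the choice of members the first was above the second, and the median difference between them was 0.658, with a largest value of 3.30. The differentiated mean was above 0.75 in most members (536 of 645, 83.1%), and 32 had a differentiated mean below 0. In 84 members every differentiated array lay below every adult array, and in the remainder the arrays overlapped. The median of the members on an array ran from 2.44 to 3.09 in adults. It was 2.23 in embryoid bodies, 2.27 after retinoic acid, 1.72 and 2.01 in endoderm and 1.88 in mesoderm, so that all 5 differentiated arrays were below all 16 adult arrays, as the rule favours. At the 782 other adult-methylated islands the same medians overlapped, from 1.30 to 2.14 in adults and from 1.64 to 2.13 in differentiated cells. The number of islands above 0.75 on an array moved with the group, at 1257 to 1647 in adults and 1653 to 2238 in differentiated cells, and since each array is scaled to its own spread the part of this in the members' difference was not tested.

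Values close to the thresholds were as follows, with SD over 16 adult and 5 differentiated arrays. Just inside the adult threshold, Rab10os had an adult mean of 0.752 ± 0.860 and Zfp697 of 0.793 ± 0.920. Just outside it, with differences large enough to qualify, Rara had 0.725 ± 0.794 and Msi1 0.714 ± 0.713. Just inside the difference threshold, Fam110a fell from an adult mean of 2.68 to a differentiated mean of 2.28 and Vmn1r42 from 2.86 to 2.45. Just outside it, BC022651 stood at 1.91 and 1.51, and Kctd19 at 2.84 and 2.44. Islands on either side of a threshold thus differed by less than the spread between arrays.

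**Figure D1:**
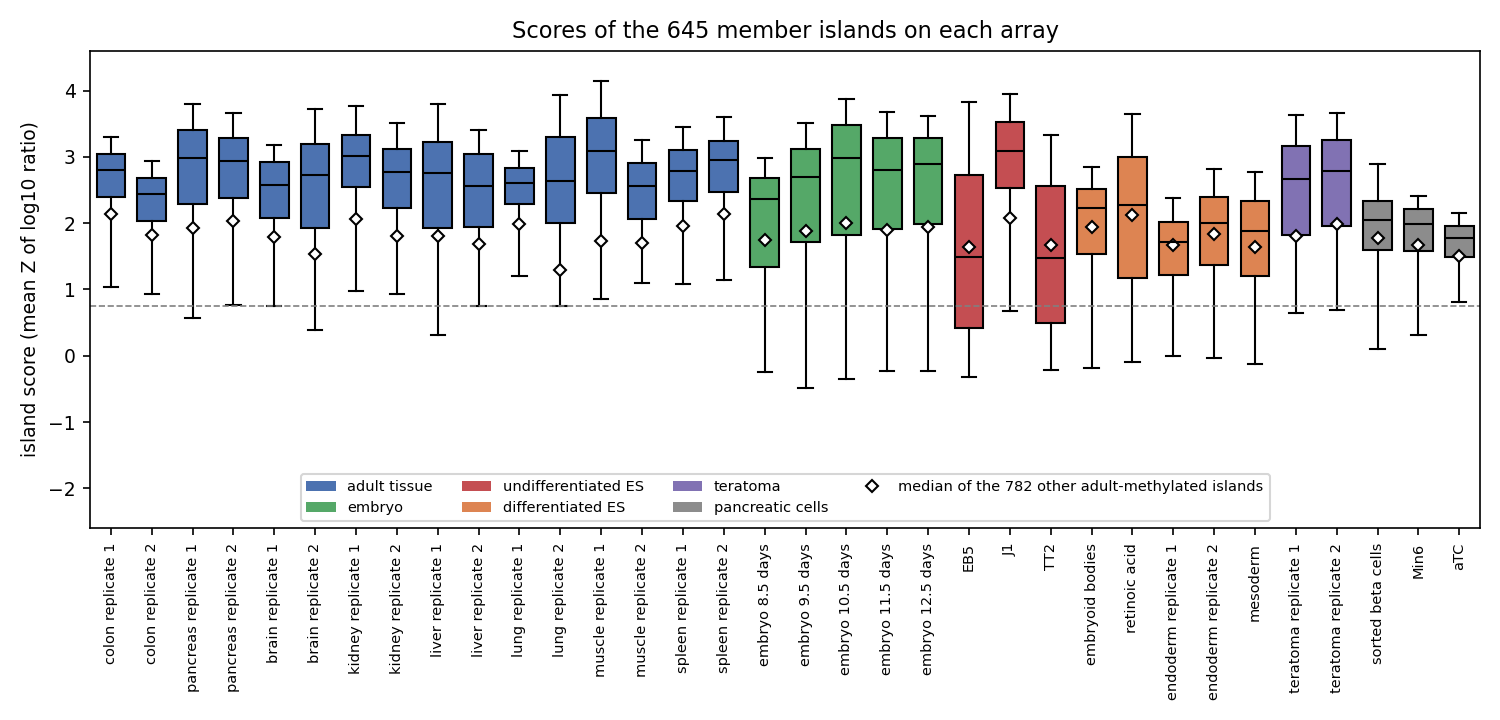
Scores of the 645 members on each of the 34 arrays; the box spans the quartiles, the line is the median, the whiskers run from the 5th to the 95th percentile, the open diamond is the median of the 782 other adult-methylated islands and the dashed line marks 0.75. Medians of EB5 (1.50) and TT2 (1.48) are the lowest, J1 (3.096) lies with the adult arrays, and embryos (2.36 to 2.99) and teratomas (2.67 and 2.78) lie within or close to the adult range of 2.44 to 3.09.

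Most members lay inside a gene and away from its start. By the array annotation 479 were inside a gene (74.3%), 90 away from any gene (14.0%), 40 at a promoter (6.20%), 31 downstream of a gene (4.81%) and 5 at a divergent promoter (0.775%). Among all autosomal islands 62.5% were inside a gene and 18.1% at a promoter, and among the other adult-methylated islands 70.6% and 6.14%. The median distance to a gene start was 8402 bases for members, 10097 for the other adult-methylated islands and 49 for all autosomal islands. A member had a median of 5 probes (3 to 33) over a median span of 503 bases (177 to 4144). By place, the median embryo mean was lowest in the 31 downstream members, at 1.22, against 2.60 at promoters, 2.78 inside genes and 2.92 away from genes. Chromosome 7 held more members than any other chromosome, 81 of its 154 adult-methylated islands (52.6%, beside 45.2% on all autosomes). The share was highest on chromosome 14 (56.7%). The files gave 1 gene name for 541 members, of which 438 were current symbols, 89 were older names of a current gene and 14 had no match, 2 names for 15, 3 for 1 and none for 88. These 541 islands belonged to 499 genes, and 33 genes had more than 1 member, up to 4 for Zfp423, a zinc finger transcription factor.

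Most members had an embryo mean above 0.75, and a part of them scored lower in embryos than in adults. The embryo mean, which the rule did not use, passed 0.75 in 529 members (82.0%), from 0 to 0.75 in 54 (8.37%) and below 0 in 62 (9.61%). To compare embryos with adults on arrays that had no part in the choice, members were chosen again with the 8 adult arrays of replicate 1, which gave 780 islands, 617 of them among the 645 (79.1% of the 780 and 95.7% of the 645), and the 8 adult arrays of replicate 2 were used for the test. Of the 780, 123 (15.8%) were lower in embryos at an adjusted p under 0.05, beside 2.95% of all islands tested, and 3 (0.385%) were higher, beside 3.57% of all. The 3, Sec1, Zscan10 and Cdk9, lie outside the 645 and were named after their values were seen. The 123 had a median embryo mean of 0.161 and a median held-out adult mean of 1.66, and 87 of them lay inside genes. Over all 780 the median embryo minus adult difference was nevertheless positive, at 0.131 (all islands 0.0204), with 32.8% lower in embryos beside 45.5% of all, so that the 123 stood against the direction of most members. With software version as a block, limma called 0 of the 780 lower (0 of all islands, 0%), with 84 lower at an unadjusted p under 0.05, so that the call was lost where software was fitted. The median difference then became -0.114, with 61.4% of the 780 lower beside 44.9% of all islands. With normexp, limma called 13 of 764 members chosen anew lower (1.70%, beside 0.147% of all) and 0 higher (141 at an unadjusted p under 0.05). With every adult array of the rule above 0.75, 60 of 682 were lower (8.80%, beside 2.95%) and 3 higher.

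Examples show how far embryos could lie below adults. Zfp316, a zinc finger gene, had 0.141, -0.487, -0.261, -0.215 and -0.157 in embryos from 8.5 to 12.5 days, and 2.16 to 3.11 (median 2.78) on the 8 held-out adult arrays. Evi5l, a gene of the TBC domain family that acts on Rab proteins, had -0.0466, -0.640, -0.412, -0.195 and 0.0903 in embryos and 1.58 to 3.57 (median 2.95) on the held-out arrays. In both genes all 5 embryos were below all 8 adult arrays, with differences of -2.89 ± 0.313 (SE, adjusted p = 1.91e-05) and -3.14 ± 0.360 (adjusted p = 2.08e-05). Both were named because ES cells and teratomas were called higher than embryos. That choice favours low embryo values, so these tests are description only. Urm1, a ubiquitin-like modifier of proteins and transfer RNA, had -0.0217, -0.502, -0.197, 0.474 and 1.39 in embryos of rising age and 2.40 to 3.31 on the held-out arrays. Here the oldest embryo was the highest, though 1 array an age allows no test of a trend. Among genes whose island carries 1 name, 1 island a gene, the lowest embryo means were those of BC057022 (-1.30 ± 0.384, SD, n = 5), 5730596B20Rik (-0.986 ± 0.090) and Nr2f1, a nuclear receptor of neural development (-0.666 ± 0.131). The highest were those of Scaf1 (3.74 ± 0.373), the kinase gene Lmtk3 (3.73 ± 0.573) and Zfp629 (3.69 ± 0.369), whose adult means were 3.51, 3.70 and 3.77.

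Undifferentiated ES cells were lower than embryos at a part of the members, in 2 of the 3 lines. The median of the 645 was 1.50 in EB5, 1.48 in TT2 and 3.096 in J1, and 2.36, 2.70, 2.99, 2.80 and 2.89 in the embryos of 8.5 to 12.5 days, so that EB5 and TT2 were below every embryo and J1 was above. Neither group took part in the rule. By their labels, however, the 5 differentiated arrays of the rule came from EB5 and TT2, and none came from J1. Low scores in EB5 and TT2 can thus follow in part from the choice, and the size of this part was not tested. At the 782 other adult-methylated islands the medians were 1.65 in EB5, 1.67 in TT2, 2.08 in J1 and 1.75 to 2.01 in embryos. With all 3 lines 107 members (16.6%) were lower at an adjusted p under 0.05, beside 2.17% of all 13616 islands, and 6 (0.930%) were higher, beside 1.11% of all. Without J1, 233 members (36.1%) were lower, beside 3.85% of all, and none was higher (limma, 9 at an unadjusted p under 0.05). The 107 had a median of 1.59 in ES cells and 2.88 in embryos, and the 233 a median of 1.07 in EB5 and TT2 and 2.83 in embryos. The median difference over all members was -0.242 with J1 and -0.559 without it, and over all islands 0.0224 and 0.0441. Leaving out EB5 or TT2 left 4 members (0.620%) in each case, beside 0.220% and 0.419% of all, and leaving out the embryo of 9.5, 10.5, 11.5 or 12.5 days left 8.53%, 5.89%, 8.37% or 9.46%. A fit of only the 8 arrays compared called 10 members lower (1.55%, beside 1.06% of all), and the methods' t-test called 0 (beside 0.257% of all), while limma with all groups had 215 lower at an unadjusted p under 0.05. With members chosen anew, MAD scaling gave 6 of 1274 (0.471%, beside 0.566% of all) and normexp 12 of 633 (1.90%, beside 0.162%). Log2 ratios gave 36 members (5.58%, beside 1.43%). In the deposited table, where J1 is the lowest line, 147 of 243 members (60.5%) were lower, beside 6.87% of 5914 islands, and 114 (46.9%) without J1, beside 5.19%. With software version as a block limma called 0 of the 645, beside 0.0441% of all, with 114 lower at an unadjusted p under 0.05, and the median difference shrank to -0.0384, with 51.5% of members lower beside 48.4% of all. Within a slide, TT2 minus the embryo of 8.5 days, which also share a software version, had a median of -0.193 over the members and 0.0268 over all islands, with 61.4% of members lower in TT2 and 46.2% of all islands.

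None of the 6 members called higher in ES cells than in embryos was called without J1, and the count also fell to 0 without the embryo of 9.5 or of 10.5 days (limma, 32 and 45 at an unadjusted p under 0.05) and to 2 without that of 11.5 days. It was 1 with slide or scan day as a block and by the methods' t-test, and 0 by limma with a software block, MAD scaling or normexp (each with members chosen anew) or log2 ratios, with 36, 44, 22 and 21 at an unadjusted p under 0.05. 1110017D15Rik had 0.663 in EB5, 0.832 in TT2 and 3.40 in J1, and -0.291 to 0.440 in embryos, with a difference of 1.64 ± 0.434 (adjusted p = 0.0306) that became 0.759 ± 0.375 (adjusted p = 0.275) without J1. Evi5l, Urm1 and Zfp316, with EB5 at 0.249, 0.989 and -0.142 and TT2 at 0.593, 0.834 and 0.870, likewise had J1 at 3.25, 3.19 and 3.00. Their differences of 1.60, 1.44 and 1.44 (limma, adjusted p = 0.0408, 0.0265 and 0.0393) became 0.662, 0.683 and 0.560 without J1 (adjusted p = 0.355, 0.232 and 0.360). In each of these 4 genes J1 stood far above every embryo, and EB5 and TT2 lay nearer to them. With J1 and software version as a block, the differences of 1110017D15Rik, Evi5l, Urm1 and Zfp316 were 1.37, 1.32, 1.22 and 1.34. They did not pass there (limma, adjusted p = 0.575, 0.615, 0.468 and 0.521). Foxc1, a forkhead transcription factor, and an island away from any gene made up the 6, named after their values were seen.

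Against adult tissue the same lines were low. The 780 islands used here were also chosen with derivatives of EB5 and TT2, so the limit given above holds. Of the 780 islands chosen with adult replicate 1, 46 (5.90%) were lower in undifferentiated ES cells than on the held-out adult arrays, beside 0.551% of all islands, and 7 (0.897%) were higher, beside 0.367%. Without J1, 317 (40.6%) were lower, beside 3.55% of all, and 13 were higher, beside 2.72% of all, and the median difference went from -0.306 to -0.649. Without EB5, or without TT2, limma called 0 in either direction, with 154 and 152 lower and 93 and 126 higher at an unadjusted p under 0.05, and the methods' t-test called 0 of 780 with all 3 lines. With all 3 lines limma also called 0 members in either direction, and 0% of all islands, with MAD scaling, log2 ratios or only the 2 groups compared. With normexp 0.393% of members chosen anew were lower, beside 0.0220% of all. With deposited values in place of the scanner files 191 of 242 (78.9%) were lower, beside 6.87% of all, and 156 (64.5%) without J1, beside 5.55%. With software version as a block limma called 0 of 780 and 0 of all islands, with 244 members lower at an unadjusted p under 0.05. The median difference under that block was -0.264, with 63.8% lower, close to the -0.306 and 64.0% without it. Within 1 slide, EB5 minus pancreas replicate 2, an array held out of the choice of the 780, had a median of -0.818 over the 780 and 0.0624 over all islands, with 76.9% of the 780 lower in EB5 beside 40.6% of all. Adgra2, an adhesion receptor gene named here after its values were seen, had the largest difference with all 3 lines: EB5 had -0.462, TT2 -0.405 and J1 3.06, and the held-out adult arrays 2.59 to 3.44 (-2.36 ± 0.466, adjusted p = 0.0319, without J1 -3.52 ± 0.267, adjusted p = 1.33e-08). Zfp467, a zinc finger gene named here after its values were seen, had the largest difference without J1: EB5 had -0.110, TT2 -0.318 and J1 3.87, and the held-out adult arrays 2.75 to 4.03. EB5 and TT2 were below all 8 of those arrays and J1 among them, with a difference of -3.64 ± 0.361 without J1 (adjusted p = 4.78e-07), and with J1 the gene did not pass (-2.27 ± 0.566, adjusted p = 0.0530). At Atxn1, the gene of the polyglutamine protein ataxin 1, all 3 lines were higher, at 3.29 to 3.55 against 1.81 to 3.21 in adults (1.18 ± 0.237, adjusted p = 0.0319, without J1 1.16 ± 0.281, adjusted p = 0.0128), also named after its values were seen.

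**Figure D2:**
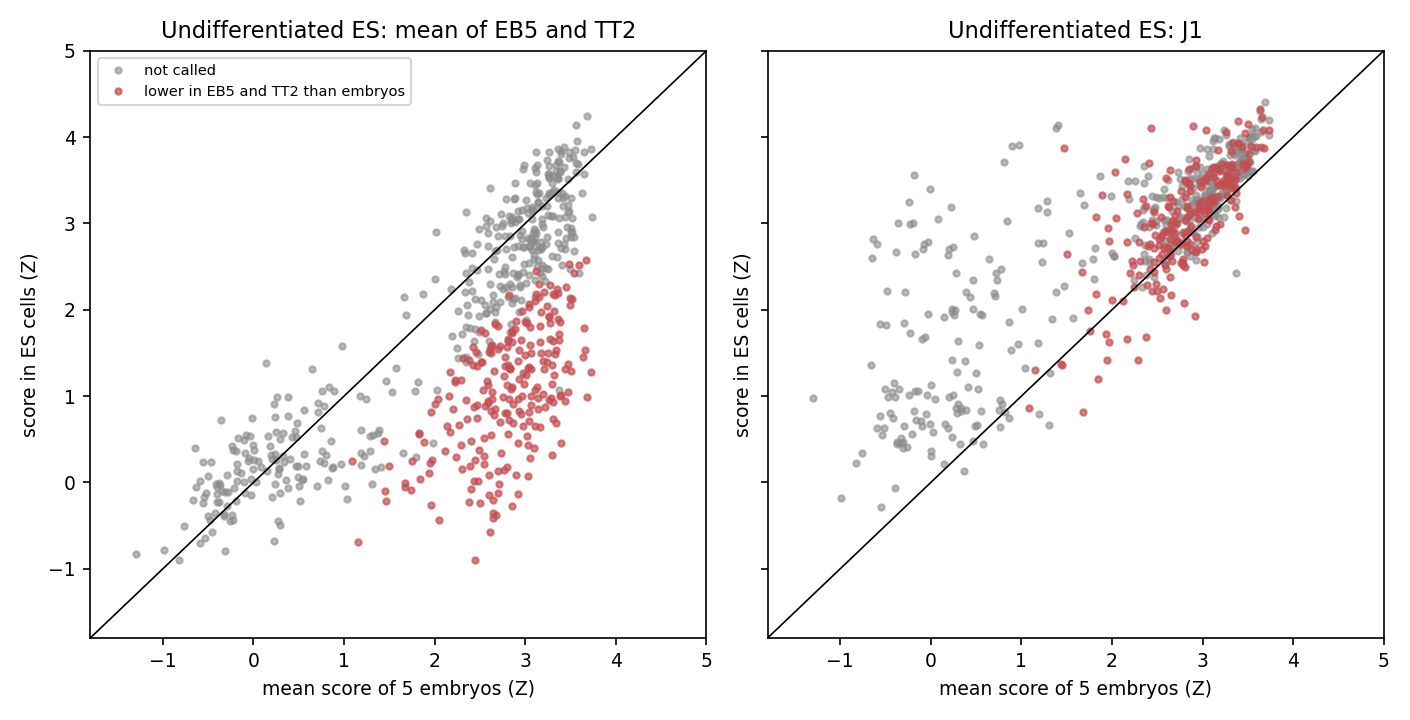
Each point is 1 of the 645 members, with the mean score of the 5 embryos on the horizontal axis and the score in ES cells on the vertical axis, EB5 and TT2 averaged on the left and J1 on the right, and the line marks equal scores. The 233 members lower in EB5 and TT2 than in embryos (red) fall below the line on the left, and on the right 178 lie on or above it and 55 below.

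Imprinted genes held the largest differences. Of 49 scored islands at imprinted genes 25 were adult-methylated and 20 were members, and the 8 members with the largest adult minus differentiated difference were all from this list. Their median was 2.57 in adults and 2.65 in embryos, 0.208 in differentiated cells, 0.0622 in EB5, 0.0178 in TT2, 3.06 in J1 and 1.65 in teratomas. ES cells were lower than embryos in 17 of the 20 with all lines and in 19 without J1, beside 2.17% and 3.85% of all islands. Teratomas lay between the differentiated cells and the embryos, and none of the 20 was called lower by limma.

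Zrsr1, a retrogene for a splicing factor expressed from the paternal allele, had 1.53 to 2.86 (median 2.55) in adults and 2.09, 2.38, 2.63, 2.51 and 2.64 in embryos of 8.5 to 12.5 days. It had -0.204 in EB5, -1.59 in TT2 and 3.00 in J1, -0.951 in embryoid bodies, -1.07 after retinoic acid, -1.24 and -0.374 in endoderm, -0.573 in mesoderm, and 1.01 and 1.29 in teratomas. All adults and embryos and J1 were thus high, EB5, TT2 and every differentiated array were below 0, and the teratomas lay apart from both. ES cells were below embryos by a difference of -2.05 ± 0.510 with J1 (adjusted p = 0.0230, 2 of 3 lines lower than every embryo) and -3.35 ± 0.327 without it (adjusted p = 2.52e-08). Kcnq1, a potassium channel gene in an imprinted cluster, had 2.07 to 3.07 (median 2.60) in adults, 2.35 to 2.94 in embryos, -0.433 in EB5, -0.392 in TT2, 2.99 in J1, -0.856 to -0.344 in differentiated cells and 1.57 and 1.70 in teratomas. Its EB5, TT2 and differentiated values were again below 0 and its teratomas between these and the embryos, with an ES minus embryo difference of -1.93 ± 0.413 (adjusted p = 0.00900) and -3.06 ± 0.211 without J1 (adjusted p = 1.07e-10). Igf2r, the receptor that clears insulin-like growth factor 2, had 1.66 to 2.94 (median 2.42) in adults, 2.30 to 2.90 in embryos, -0.365 in EB5, -0.787 in TT2, 2.90 in J1, -0.896 to 0.223 in differentiated cells and 1.22 and 1.77 in teratomas. Again EB5, TT2 and all differentiated arrays were below every embryo (-2.03 ± 0.449, adjusted p = 0.0112, without J1 -3.19 ± 0.281, adjusted p = 5.26e-09). With software version as a block the differences of Zrsr1, Kcnq1 and Igf2r, with J1, were -2.23, -1.96 and -2.06, about as large, and did not pass (adjusted p = 0.208, 0.220 and 0.198).

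Further imprinted members were also low in differentiated cells. Peg10, a retrotransposon-derived gene needed in the placenta, had an adult mean of 2.48 ± 0.484 (SD, n = 16), an embryo mean of 2.38 ± 0.184 (n = 5) and a differentiated mean of -0.505 ± 0.267 (n = 5), with 0.0773 in EB5, -0.542 in TT2 and 3.20 in J1. It missed the threshold with J1 (-1.47 ± 0.467, adjusted p = 0.0795) and passed it without (-2.61 ± 0.323, adjusted p = 1.30e-06). Grb10, an adaptor of growth factor receptors, had means of 2.57 ± 0.331, 2.64 ± 0.336 and -0.286 ± 0.315 in the same groups. Mcts2, a retrogene within H13, had 2.86 ± 0.487, 2.86 ± 0.252 and 0.0372 ± 0.415. Plagl1, a zinc finger factor that restrains growth, had 2.63 ± 0.417, 2.70 ± 0.362 and 0.0712 ± 0.245. Grb10, Mcts2 and Plagl1 each passed with J1 (adjusted p = 0.0305, 0.0301 and 0.0305, differences -1.68, -1.92 and -1.57, lower than every embryo in 2 of 3 lines) and without it (adjusted p = 6.63e-09, 3.44e-07 and 6.32e-07, differences -2.85, -3.13 and -2.56). The island shared by Peg3 and Usp29, which carries 2 names, had the largest difference of all members, with an adult mean of 2.60 and a differentiated mean of -0.703, and was named after its values were seen. Gnas, a G protein subunit gene with several imprinted transcripts, held 3 members, and 1 of them differed: its teratoma mean was 3.1, above its embryo mean of 2.48, with EB5 at -0.403 and TT2 at 0.442.

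**Figure D3:**
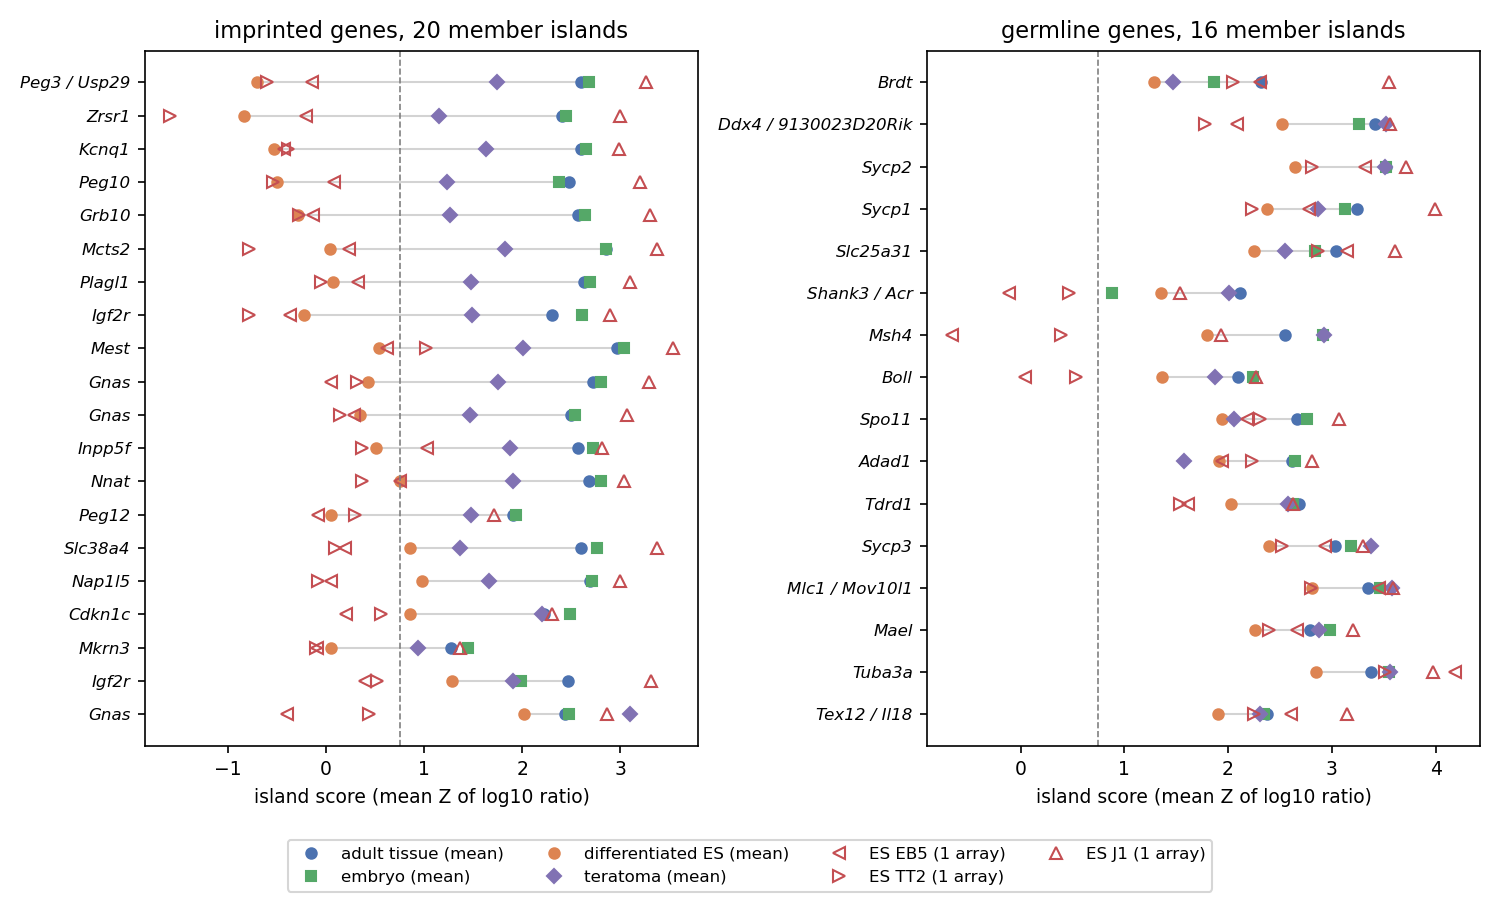
Mean scores of adult tissue (16 arrays), embryos (5), differentiated ES cells (5) and teratomas (2), and single arrays of EB5, TT2 and J1, for the 20 imprinted and 16 germline members, with the dashed line at 0.75. Imprinted members have a differentiated median of 0.208 and germline members of 2.14, against adult medians of 2.57 and 2.74.

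Genes of meiosis and sperm formation scored close to the members as a whole in differentiated cells, with a median of 2.14 beside 2.04. Of 33 scored islands at germline genes 21 were adult-methylated and 16 were members, with medians of 2.74 in adults, 2.88 in embryos, 2.14 in differentiated cells, 2.46 in EB5, 2.24 in TT2, 3.25 in J1 and 2.72 in teratomas. ES cells were lower than embryos in 1 of the 16 with all lines and in 4 without J1, beside 2.17% and 3.85% of all islands. That gene was Msh4, which acts in meiotic crossing over: it had 2.52, 2.90, 3.20, 2.93 and 3.05 in embryos, -0.657 in EB5, 0.386 in TT2 and 1.93 in J1, and 2.34, 1.46, 1.41, 1.74 and 2.04 in embryoid bodies, retinoic acid cells, endoderm 1 and 2 and mesoderm. All 3 ES lines were below all embryos (-2.37 ± 0.361, adjusted p = 0.00104, without J1 -3.06 ± 0.328, adjusted p = 1.39e-07, and with a software block -2.11 ± 0.521, adjusted p = 0.105), the differentiated cells lay above EB5 and TT2, and the teratomas, at 2.69 and 3.16, were among the embryos. Rbmxl2, a testis gene for an RNA-binding protein that is not on the germline list and not among the 16, had 2.17 to 2.86 in embryos, -0.826 in EB5, 0.114 in TT2, 2.66 in J1 and 0.573 to 2.15 in differentiated cells (-1.996 ± 0.514, adjusted p = 0.0277, without J1 -3.002 ± 0.459, adjusted p = 3.75e-05). Its EB5 and TT2 values were below all other arrays. Without J1, Boll, Tdrd1 and the island shared by Ddx4 and 9130023D20Rik, named after their values were seen, were the others of the 16 called lower, at -1.95 ± 0.360, -1.05 ± 0.289 and -1.34 ± 0.394. The synaptonemal complex genes kept high scores, with Sycp1 at 2.78, 3.99 and 2.23 in EB5, J1 and TT2 and 2.85 to 3.35 in embryos, and Sycp2 at 3.32, 3.71 and 2.80 and 2.85 to 3.94. Brdt, a testis bromodomain gene, had 1.62 to 2.54 in embryos and 2.31, 3.55 and 2.05 in EB5, J1 and TT2. These 3 genes did not pass the test against embryos with or without J1.

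Zinc finger genes made up the largest list. Of 252 scored islands 42 were adult-methylated and 31 were members, 30 inside a gene, with medians of 3.16 in adults, 3.03 in embryos, 2.34 in differentiated cells, 0.788 in EB5, 1.28 in TT2, 3.57 in J1 and 3.30 in teratomas. ES cells were lower than embryos in 9 with all lines and in 15 without J1, beside 2.17% and 3.85% of all islands. Zfp467 had 0.396, 1.00, 1.38, 2.04 and 2.51 in embryos of 8.5 to 12.5 days, -0.110 in EB5, -0.318 in TT2, 3.87 in J1 and 2.86 and 3.06 in teratomas, against 2.75 to 4.10 in adults. Its embryos thus stood between EB5 and TT2 and the adult arrays, with the youngest nearest the ES cells, and the ES minus embryo difference was -0.316 ± 0.546 with J1 (adjusted p = 0.823) and -1.68 ± 0.365 without it (adjusted p = 0.00307). Zfp444 had 1.75 to 2.84 in embryos, 0.251 in EB5, 0.0540 in TT2, 2.79 in J1 and 0.0421 to 1.37 in differentiated cells (-2.15 ± 0.379 without J1, adjusted p = 0.000273, with J1 -1.27 ± 0.435, adjusted p = 0.109). Both low lines were below every embryo. Zfpm1, a cofactor of GATA proteins in blood formation, had 0.867 to 2.31 in embryos, 0.114 in EB5, 0.253 in TT2 and 4.14 in J1, and did not pass with J1 (adjusted p = 0.955, difference 0.0956) or without it (adjusted p = 0.108, difference -1.22).

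Hox members were low in embryos, EB5, TT2 and differentiated cells, and those described by tissue below were also low in some adult tissues. Of 66 scored Hox islands 7 were adult-methylated and 5 were members, 3 at Hoxb3, 1 at Hoxa5 and 1 shared by Hoxa2 and 5730596B20Rik, with medians of 1.36 in adults, -0.430 in embryos, -0.511 in EB5, -0.187 in TT2, 0.628 in J1, -0.340 in differentiated cells and 1.41 in teratomas, and of -0.395, 0.583 and 0.805 in sorted beta cells, Min6 and aTC. Hoxa5, which patterns the neck and chest region, had -0.334 to 3.57 (median 1.31) in adults, -0.722, -0.605, -0.414, -0.365 and -0.498 in embryos and 1.69 and 1.66 in teratomas. Hoxb3, which patterns the hindbrain, had -0.173 to 2.94 (median 1.58) in adults, -0.597 to 0.0819 in embryos and 1.95 and 1.39 in teratomas at the island with the largest difference. Mean scores in liver, brain and pancreas were -0.0337, 0.256 and 0.612 at Hoxa5, against 2.41 in kidney. At this Hoxb3 island they were 0.280, 0.345 and 0.524, against 2.41 in kidney. The Hoxa2 island had 0.00790, 0.395 and 0.512, against 2.26 in colon. No Hox member was called between tissues. The lowest adult array lay just above the highest embryo in Hoxa5 and below it in Hoxb3, the teratomas lay above all embryos, and no Hox member passed the test of teratomas against embryos (Hoxa5 2.19 ± 0.651, adjusted p = 0.226). All 5 were called lower in embryos than on the held-out adult arrays, beside 2.95% of all islands. Those arrays were held out of the choice of the 780 but helped to choose these 5, so this count is description only. None of the 5 was called with software version as a block, where limma called 0 of the 780 (84 lower at an unadjusted p under 0.05).

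Protocadherin, pluripotency and methylation genes held fewer members. Of 12 scored islands of the clustered protocadherins, cell surface proteins of neurons, 9 were adult-methylated and 5 were members, all in the alpha cluster and 4 at promoters. ES cells were lower than embryos in 2 with all lines and in 4 without J1, beside 2.17% and 3.85% of all islands. Pcdha4 had 2.54 to 3.36 in embryos, 1.99 in EB5, 1.19 in TT2, 3.18 in J1 and 1.35 to 2.38 in differentiated cells (-0.936 ± 0.261, adjusted p = 0.0412, without J1 -1.47 ± 0.226, adjusted p = 4.28e-05). Pcdha10 had 2.07 to 3.16 in embryos, 2.09 in EB5, 0.612 in TT2, 2.51 in J1, and 0.692 after retinoic acid against 1.71 to 1.84 in the other differentiated cells (-1.05 ± 0.280, adjusted p = 0.0328, without J1 -1.43 ± 0.290, adjusted p = 0.00143). At these genes TT2 was lower than EB5, and in Pcdha10 EB5 and J1 overlapped with the embryos. Pcdha12 had 1.01 to 1.40 in embryos, -0.333 in EB5, -1.04 in TT2 and 1.30 in J1, and it passed only without J1 (-1.84 ± 0.414, adjusted p = 0.00434, with J1 -1.18 ± 0.417, adjusted p = 0.124). Of 17 scored islands of pluripotency genes 6 were adult-methylated and 3 were members, and 1 was lower in ES cells than in embryos, with and without J1. That was Esrrb, a nuclear receptor of ES cell self-renewal, with 1.98 to 2.95 in embryos, -0.282 in EB5, -0.0198 in TT2, 2.48 in J1 and 1.18 to 1.93 in differentiated cells (-1.88 ± 0.360, adjusted p = 0.00503, without J1 -2.75 ± 0.254, adjusted p = 8.57e-09). EB5 and TT2 were below all embryos and J1 among them. Sall4 (2.97, 3.74 and 2.94 in EB5, J1 and TT2, 2.92 to 3.83 in embryos) and Tbx3 (-1.10, 1.97 and -0.249, and -0.0679 to 0.531), both transcription factors of ES cells, did not pass with or without J1. Of 20 scored islands at DNA methylation enzymes and readers 1 was adult-methylated and a member, at Mbd3, a subunit of the NuRD complex. It had 2.77 to 3.50 in embryos, -0.324 in EB5, 1.13 in TT2, 3.30 in J1 and 1.78 to 2.43 in differentiated cells (-1.73 ± 0.408, adjusted p = 0.0171, without J1 -2.69 ± 0.3003, adjusted p = 2.81e-07).

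Teratomas were close to embryos and adults at most members. The median of the 645 was 2.67 and 2.78 on the 2 arrays, and 607 and 608 members were above 0.75, against 513 to 544 in embryos and 575 to 638 in adults. Neither teratomas nor embryos took part in the rule. Lower in teratomas was 1 member (0.155%), beside 0.0441% of all islands, and 7 (1.09%) were higher, beside 0.191%. Tescl, the member that was lower, had 0.110 and 0.323 in teratomas and 1.53, 2.00, 1.96, 1.93 and 1.76 in embryos (-1.62 ± 0.277, adjusted p = 0.00515). Both tumours were below every embryo. EB5 (0.00892) and TT2 (0.0800) were lower still, while J1, the line on the tumours' labels, was above both tumours at 1.20. Without either teratoma array limma called 0 members lower, with 5 and 12 at an unadjusted p under 0.05, and the methods' t-test called 1. With only the 7 arrays compared the counts were 21 lower (3.26%, beside 0.764% of all) and 90 higher (beside 2.56% of all).

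The 7 members higher in teratomas had embryo means below 0.75. Evi5l had 2.42 and 2.41 in teratomas and -0.640 to 0.0903 in embryos (2.66 ± 0.510, adjusted p = 0.0128). Zfp316 had 1.94 and 2.45 against -0.487 to 0.141 (2.39 ± 0.456, adjusted p = 0.0125). In both, each tumour was above every embryo. Pi16, a peptidase inhibitor gene, had 2.80 and 2.81 against 0.204 to 1.63 (2.09 ± 0.444, adjusted p = 0.0309). Mpst, an enzyme that makes hydrogen sulfide, had 2.10 and 2.35 against 0.116 to 0.527 (1.97 ± 0.410, adjusted p = 0.0298). Here too the 2 groups did not overlap. Dusp8, Rps6ka4 and an island away from any gene, named after their values were seen, completed the 7. The count of 7 fell to 0 without either teratoma array (limma, 47 and 38 higher at an unadjusted p under 0.05) and to 3, 2 and 3 without the embryo of 8.5, 9.5 and 10.5 days. It was 1 with slide as a block and 25 by the methods' t-test (beside 0.720% of all), and 0 by limma with a software block, a scan day block, MAD scaling or normexp (each with members chosen anew) or log2 ratios, with 58, 60, 48, 28 and 58 higher at an unadjusted p under 0.05. Of the 116 members with an embryo mean of 0.75 or less, the teratoma mean was above 0.75 in 39 of 54 between 0 and 0.75 and in 38 of 62 below 0, while the mean of EB5 and TT2 was above 0.75 in 10 and 0. Among those 62 the median was 0.983 in teratomas, 1.01 in J1, -0.139 in EB5, -0.0265 in TT2, 0.212 in differentiated cells and 1.19 in adults. The 116 were picked for low embryos among islands picked for high adults, so that higher values in other groups follow in part from the choice, and these counts are description only. Against the held-out adult arrays 2 of 780 (0.256%) were lower in teratomas, beside 0.0147% of all, and limma called 0 higher, beside 0.125%, with 23 higher at an unadjusted p under 0.05. The 2 were Tescl and the island shared by EG633640 and 3110070M22Rik, named after its values were seen, with 0.978 and 0.284 in teratomas and 2.84 to 3.59 on the held-out arrays (-2.53 ± 0.349, adjusted p = 0.000591). On the adult arrays of replicate 1 that island ran from 0.243 in liver to 3.44 in pancreas, so that the teratomas lay among them and the difference depends on the replicate held out. Without teratoma replicate 1 the share was 0.128% and without replicate 2 it was 0.

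**Figure D4:**
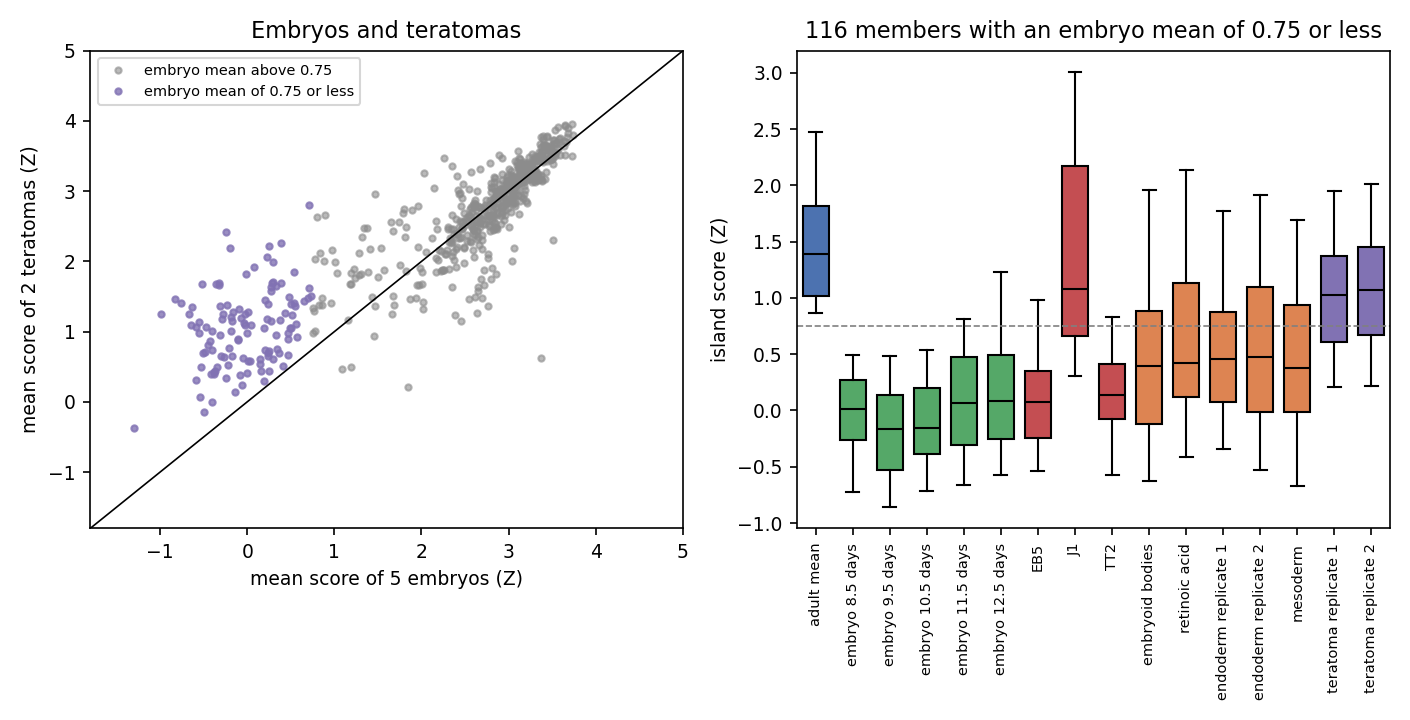
Left, the mean score of 2 teratomas against that of 5 embryos for the 645 members, with the 116 members whose embryo mean was 0.75 or less in purple and a line at equal scores; right, scores of the 116 in the adult mean and on each array, with boxes for quartiles, lines for medians, whiskers for the 5th to the 95th percentile and a dashed line at 0.75. The 116 were picked for low embryo means, so that a place above the line follows in part from the choice, and teratoma means were above 0.75 in 39 of 54 and 38 of 62.

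Differentiated cells of TT2 were then compared with adult arrays after a choice that used neither. Members were chosen again with adult replicate 1 and the 3 endoderm and mesoderm arrays from EB5, which gave 921 islands, 626 of them among the 645 (68.0% of the 921 and 97.1% of the 645). Of these, 56 (6.08%) were lower in embryoid bodies and retinoic acid cells than on the held-out adult arrays, beside 1.48% of all islands, and 2 (0.217%) were higher, beside 4.22%. The 56 lie within the 645, and 17 of them were imprinted. The 2, Evpl and an island away from any gene, lie outside the 645 and were named after their values were seen. Zrsr1, Kcnq1 and Grb10 were named for their adult minus differentiated difference over all arrays, these included, so their values are given without a test. Zrsr1 had -0.951 and -1.07 against 1.53 to 2.86, Kcnq1 -0.490 and -0.609 against 2.07 to 3.07, and Grb10 -0.471 and -0.674 against 2.02 to 3.01. The median difference over the 921 was -0.167, and over all islands -0.0115. With software version as a block, where the retinoic acid array differs from the adults, 15 (1.63%) were lower, beside 0.397% of all, and MAD scaling and normexp gave 1.59% and 1.74% of members chosen anew, beside 0.602% and 0.969%. Without embryoid bodies the share was 1.63% and without retinoic acid cells 2.28%. Within a slide, embryoid bodies minus brain replicate 2, 2 arrays that had no part in the choice of the 921, had a median of -0.436 over the 921 and -0.0394 over all islands, with 76.1% of the 921 lower beside 53.8% of all.

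Between the 2 sources of differentiated cells, limma called 0 of the 645 different, beside 0.00734% of all islands, and so did the methods' t-test. At an unadjusted p under 0.05, 191 members were lower in the 3 EB5 derivatives and 27 were higher, against 4.41% and 4.88% of all islands. The medians were 1.72, 2.01 and 1.88 in the EB5 derivatives and 2.23 and 2.27 in the TT2 derivatives and did not overlap. The rule used the mean of these 5 arrays and not their difference, but they are arrays of the rule. Leaving retinoic acid cells or endoderm replicate 1 out of the rule gave 796 or 566 members, so that single arrays moved the choice. These counts are therefore description only, and nothing further rests on them. Line and method of differentiation differ together here and cannot be told apart.

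**Figure D5:**
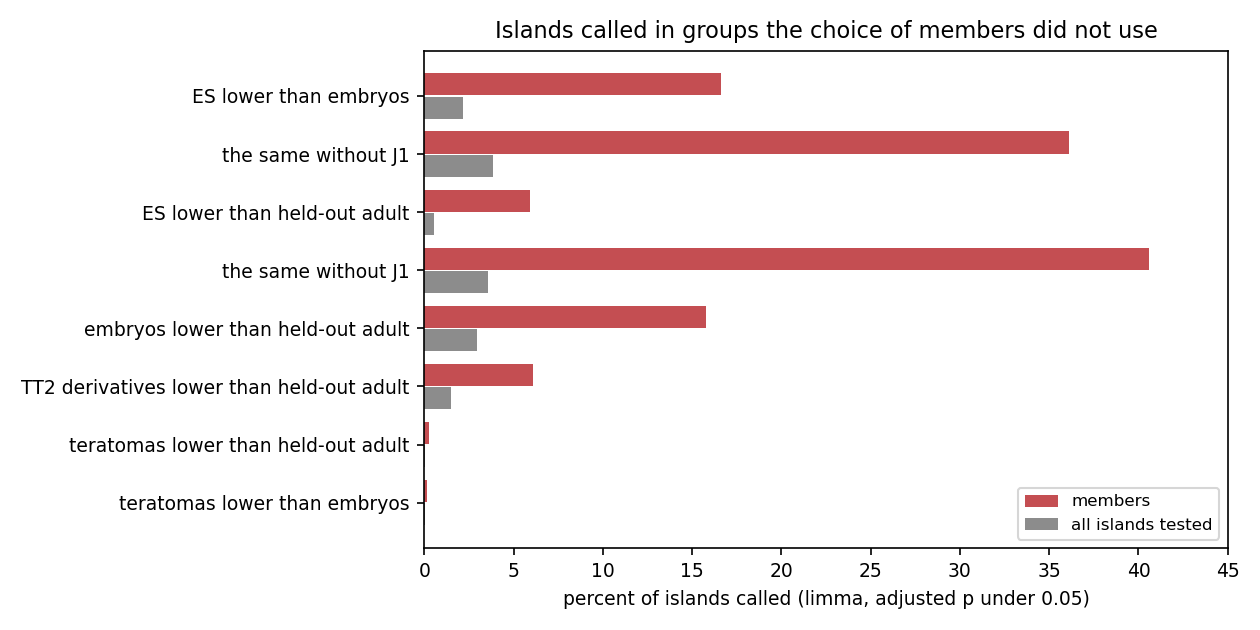
Bars give the percent of islands called at an adjusted p under 0.05 among members (red) and among all islands tested (grey), for comparisons of groups or arrays that had no part in the choice of members. EB5 and TT2 are the labelled parents of the differentiated arrays that chose members, so their low values can follow in part from the choice. Members reach 36.1% for ES cells without J1 against embryos and 40.6% against held-out adult arrays, beside 3.85% and 3.55% of all islands. Most of all islands score low in adults and have less room to be lower, so part of the gap can follow from the adult threshold.

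Few members were called different between adult tissues, with 2 arrays a tissue. The median of the 645 tissue means was highest in pancreas (2.98) and lowest in colon (2.62), liver (2.62), brain (2.62) and lung (2.63), with kidney at 2.85, spleen at 2.84 and muscle at 2.80. Colon was the lowest tissue for 250 members and pancreas the highest for 290. The range between the 8 tissue means had a median of 0.734 (0.268 to 2.72), against 0.872 in the other adult-methylated islands, and exceeded 1 in 156 members (24.2%). The rule used the mean of these 16 arrays and not the differences between tissues, but they are arrays of the rule, and nothing further rests on the counts below. An F test over tissues called 1 member (0.155%), beside 0.0808% of all islands, with 52 members at an unadjusted p under 0.05 (8.06%, beside 3.95% of all), and a one-way analysis of variance called 0 with 24 unadjusted. It was 1 of the 4 islands of Zfp423, named after its values were seen, with tissue means of 2.70 in kidney, 2.75 in lung, 2.86 in muscle and 2.42 in spleen, and 1.25 in brain, 1.15 in colon, 1.28 in liver and 1.17 in pancreas (adjusted p = 0.0430). All 8 arrays of the first 4 tissues, 2.19 to 3.12, were above all 8 of the others, 0.931 to 1.42. The call was lost with the replicate number as a block and when either array of colon, pancreas, liver, muscle or spleen or the first of kidney was left out (0%), and leaving out the first brain array gave 0.310%.

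Against the mean of the other 7 tissues, 4 members (0.620%) stood out in 1 tissue, beside 0.756% of all islands, a share near that of all islands. They were named after their values were seen. Casz1, a zinc finger gene, had 2.72 and 2.32 in colon, with a colon mean 1.40 ± 0.270 above the others (adjusted p = 0.0392), and an island away from any gene was 1.76 ± 0.239 higher in colon (adjusted p = 0.00752). The 2 colon arrays were the highest in each. Cdh15, the muscle cadherin gene, was lower in colon, at 1.95 and 1.65 (-0.834 ± 0.156, adjusted p = 0.0342). Phospho1, a phosphatase of bone mineralisation, was lower in pancreas, at -0.139 and 0.00577 (-1.73 ± 0.228, adjusted p = 0.0237), against tissue means of 0.952 to 2.55 elsewhere. In both genes the 2 arrays of that tissue held the lowest values.

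Pancreatic cells scored below whole pancreas at most members. The median of the 645 was 2.04 in sorted beta cells, 1.99 in Min6 and 1.78 in aTC, against 2.98 and 2.93 in the pancreas arrays, which helped to choose the members, with 1 array a cell type and hence no test. On pancreas replicate 2, held out of the choice of the 780, the median of the 780 was 2.92, and beta cells were below it at 679 (87.1%, beside 49.3% of all islands), Min6 at 708 (90.8%, beside 65.4%) and aTC at 713 (91.4%, beside 65.0%). The number of islands above 0.75 was 1573 in beta cells, 2598 in Min6 and 3067 in aTC, and its part in these values was not tested. The pancreatic cell arrays shared a scan day and a software version, and both pancreas arrays were read on other days with another version. Cell type, scan day and software thus cannot be told apart in this comparison. At imprinted members the medians were 1.57, 1.72 and 1.54, between those of differentiated ES cells and of adults. Hoxa5 had -0.635 in beta cells, 1.87 in Min6 and 1.25 in aTC, so that here the lines were higher than the sorted cells. BC057022 was high in aTC, at 2.04, and low in beta cells (-1.19) and Min6 (-0.951).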

How the data were processed

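Methylation was measured by immunoprecipitation with an antibody to 5-methylcytidine on 34 two-colour CpG island arrays, with bound DNA in Cy5 and input DNA in Cy3. The deposited scanner files hold, per the file headers, a log10 ratio of bound to input after background subtraction and linear dye normalization. As deposited by the authors they also hold an intensity for every spot and for the background around it. The deposited processed table of the authors holds a score, the Z value of each array over the probes kept. Control and flagged probes were left out, each array's log10 ratios were set to mean 0 and SD 1, and islands were formed with the coordinates of most arrays, since 6 arrays list others (an added alternative). A melting temperature correction in the study's methods was not applied to the scanner files. The members and the gene lists were chosen with earlier results of these data known.

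All islands entered each limma fit (limma 3.58.1, R 4.3.3) with Benjamini-Hochberg adjustment, and called means an adjusted p under 0.05. Adult, embryo, undifferentiated, differentiated and teratoma arrays were fitted together. For comparisons with adults, members were chosen again with adult replicate 1, or with adult replicate 1 and the EB5 derivatives, and adult replicate 2 was tested. Replicate numbers were checked for pairing: differences between replicates of tissues correlated at r from -0.253 to 0.629 (median 0.106) over 28 pairs of tissues, and pairs were not used in the test. The model was tested on simulated data, and no outcome of that test is used here. Signal over background had array medians of 3.07 to 7.34 for input DNA and 1.54 to 5.59 for bound DNA, and few arrays a group limit what can be resolved. Named genes carry 1 name in the files and are those with the largest adult minus differentiated difference (6), up to 4 called in each direction in ES cells and in teratomas against embryos, up to 6 called between tissues, up to 3 of each list, those nearest each threshold, and the highest and lowest embryo means. Other tools were Python 3.11.15, numpy 2.4.6, pandas 2.3.3, scipy 1.17.1 and matplotlib 3.10.9. Alternatives covered scaling, background correction, the deposited table, probe and island filters, thresholds, the test, slide, scan day, software, and single arrays left out.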

Additional observations from a re-analysis of the deposited data

Results flagged for a closer look

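Over the named genes and the median of the members, 76 groups of 5 arrays (embryos or differentiated cells) were examined for an array far from the others by Dixon's ratio of gap to range, and 7 were flagged, while chance flags about 1 in 20 groups. In the embryo of 8.5 days Grb10 had a score of 2.07 (the other embryos 2.70 to 2.95), Brdt 2.54 (1.62 to 1.77) and Lmtk3 2.74 (3.76 to 4.12). In mesoderm 1110017D15Rik had 1.31 (the other differentiated arrays 2.13 to 2.37). In endoderm replicate 1 Evi5l had 1.77 (2.15 to 2.30) and Hoxa5 0.496 (-0.322 to -0.212). After retinoic acid Pcdha10 had 0.692 (1.71 to 1.84). No cause of these values was tested.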

How the results depend on the processing

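Values are percent of members called, with the main value in brackets, and the cause of each change was not tested. The number of members (645) became 1274 with median and MAD scaling, 243 in the deposited table, 357 with input well above background, 331 with at least 5 probes and 395 with a difference of at least 0.6. ES cells lower than embryos (16.6) became 0.471 with MAD scaling, 1.90 with normexp, 60.5 in the deposited table, 5.58 with log2 ratios, 0 with the methods' t-test, 0 with a software block, 1.55 with only the 2 groups, 9.61 with each tissue as a group and 46.9 in the table without J1. The share of all islands (2.17) became 0.566 with MAD scaling, 0.162 with normexp and 1.43 with log2 ratios. With MAD scaling the members' share was thus below that of all islands. Teratomas lower than embryos (0.155) became 0.0785 with MAD scaling, 0 with normexp or log2 ratios, 2.47 in the table, 0.280 with input well above background, 0.302 with 5 probes, 0.253 with the difference of 0.6 and 3.26 with only the 2 groups. Embryos lower than held-out adults (15.8) became 1.70 with normexp, 24.0 in the table, 23.8 with input well above background, 8.80 with every adult array above 0.75 and 0 with a software block. ES cells lower than held-out adults (5.90) became 0 with MAD scaling, log2 ratios, the methods' t-test, a software block or only the 2 groups, 0.393 with normexp, 78.9 in the table, 64.5 in the table without J1, 29.9 with input well above background, 9.88 with the median of the probes, 3.51 with 5 probes, 9.36 and 3.21 with slide and scan day as random blocks and 10.2 with the adult replicates exchanged. Teratomas lower than held-out adults (0.256) became 0 with MAD scaling or normexp, 1.65 in the table, 0.147 with every adult array above 0.75, 0.403 with the difference of 0.6 and 0.128 with log2 ratios, the methods' t-test or a software block. TT2 derivatives lower than held-out adults (6.08) became 1.59 with MAD scaling, 1.74 with normexp, 16.4 in the table, 10.697 with input well above background, 3.04 with log2 ratios, 1.63 with a software block and 9.33 with the adult replicates exchanged. The difference between tissues (0.155) became 0.412 in the table, 0.280 with input well above background, and 0 with MAD scaling, normexp, log2 ratios, the median of the probes, 5 probes, the difference of 0.6, analysis of variance, a slide block or a replicate block. EB5 against TT2 derivatives (0) became 0.280 with input well above background. Leaving out 1 differentiated array gave 566 to 796 members, while no adult array was left out of the choice or of the comparisons with adults. Leaving out 1 array of the groups compared gave 0.620 to 36.1 for ES cells and 0 to 0.155 for teratomas against embryos. Against held-out adults it gave 11.3 to 14.9 for embryos, 0 to 40.6 for ES cells, 0 to 0.128 for teratomas and 1.63 to 6.33 for TT2 derivatives (2.28 without retinoic acid cells). For the tissues, where each adult array was left out in turn, it gave 0 to 0.310. A group left with 1 array was assumed to vary like the other groups. In all, 102 values kept within 1.5 times of the main value and 96 did not. The table without J1 and the coordinates of the other 6 arrays were chosen after seeing the data, and the second changed no result by more than 1.5 times. Slide and scan day for EB5 against TT2 derivatives and software for the tissues could not be fitted, and normexp used median signals because the files hold no mean signals. With bound signal at 1.54 to 5.59 times its background, small differences at weakly bound islands are not resolved.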
